A study of Mus musculus with 8 samples.

Results

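The genes that make cholesterol and fatty acids were followed in blood progenitors of mice that lack Cbfb in blood cells. The set held 32 listed genes, of which 31 had a row of the array table whose annotation gave that symbol alone, out of 19938 genes measured in this way. Acat2 had no such row and was not analysed here. The 31 genes had 34 rows. Acaca, Idi1 and Fdft1 had 2 rows each, and each was represented by its brighter row on average.

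RNA was measured on 8 Affymetrix arrays from 2 cell populations and 2 genotypes, with 2 arrays in each of 4 groups. Mice were 7 weeks old, on a backcrossed C57BL6 background, and about 200000 cells were sorted per population at a purity above 98%. Knockout (KO) mice were Vav1-iCre x Cbfb(F/F), with a Cre recombinase that the blood-active Vav1 gene drives and with both Cbfb alleles floxed. Control (Het) mice were Vav1-iCre x Cbfb(F/+), so the controls carried the same Cre and had 1 intact Cbfb allele, and no wild type was measured. LSK cells are a marrow population rich in stem cells and early progenitors, and GMP cells are granulocyte and macrophage progenitors. Cbfb encodes the partner protein with which Runx factors bind DNA stably.

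All levels are log2 expression values as deposited, and differences are on the log2 scale, where 1 unit is a change of 2-fold. Each group had 2 arrays, and their values are given singly for the members that the results turn on. The test was limma's, fitted across 21789 rows and adjusted by Benjamini-Hochberg over all of them, and a gene is said to have risen, fallen or passed only where the adjusted p was under 0.05. The SE of each difference is also limma's. Cells came from 2 mice of each genotype, and the labels call both arrays of a group biological replicates, without saying which mouse gave which array. With 2 arrays against 2, an exact two-sided permutation test cannot go below p = 0.333.

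Correlations over all tested rows were 0.990 to 0.995 within a group and 0.955 to 0.983 between groups. Cbfb lay between 7.53 and 7.65 in the 4 Het arrays and between 6.48 and 6.98 in the 4 KO arrays. The targeted gene fell by 0.86 in GMP (adjusted p = 0.013), while its difference of -0.60 in LSK did not pass (adjusted p = 0.0557). Of 8 GMP marker genes, among them Mpo and Elane, 8 were higher in Het GMP than in Het LSK. All 6 measured LSK markers, among them Flt3 and Hlf, were lower there. Over all tested rows, 7.9% passed as higher and 9.6% as lower in this comparison. Against Het LSK, 4 of these 6 markers fell in KO LSK, Flt3 by 3.41 and Hlf by 1.11 among them, and Slamf1 rose by 2.40. Of all tested rows, 4.71% passed as lower and 3.02% as higher there. Ly6a, which encodes the Sca-1 marker of the LSK sort, was not analysed here.

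Cholesterol is built from acetyl-CoA through mevalonate, farnesyl diphosphate and squalene, and lanosterol is then trimmed to cholesterol by a chain of endoplasmic reticulum enzymes. Fatty acids are built from the same precursor by carboxylation and chain extension, and desaturases and elongases then shape them for membranes. The transcription factors SREBP-1 and SREBP-2, held in the endoplasmic reticulum with Scap and the Insig proteins while sterol is plentiful, activate most genes of both routes when sterol runs low.

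In LSK cells, 4 of the 6 members that fell without Cbfb belong to the fatty acid arm. The desaturase genes Fads2 and Scd2 fell 3.42-fold and 3.87-fold, the elongase gene Elovl5 fell 1.93-fold and Acaca, which encodes the acetyl-CoA carboxylase that makes malonyl-CoA, fell 1.5-fold. Srebf2, the gene of SREBP-2, fell 1.75-fold and the sterol desaturase gene Sc5d fell 1.64-fold. Of the 31 members, 6 fell and 0 rose in KO LSK, or 19.4%, where 7.73% of all tested rows passed, 3.02% as higher and 4.71% as lower. Among rows at or above log2 5 in at least 2 arrays the gap was smaller. There, 6 of 30 members fell, and 1682 of 11695 rows passed. The shares of all rows given below include dimmer rows too. The median difference was -0.18 over the members and 0.01 over all rows, and after quantile normalization -0.11 and 0.01. In 16 members both KO LSK arrays lay below both Het LSK arrays, a pattern that 22.7% of all rows showed, and in 2 members both lay above, against 22.8% of all rows. Without Het LSK replicate 1, Het LSK replicate 2 or KO LSK replicate 2, the count that fell was 3.

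**Figure D1:**
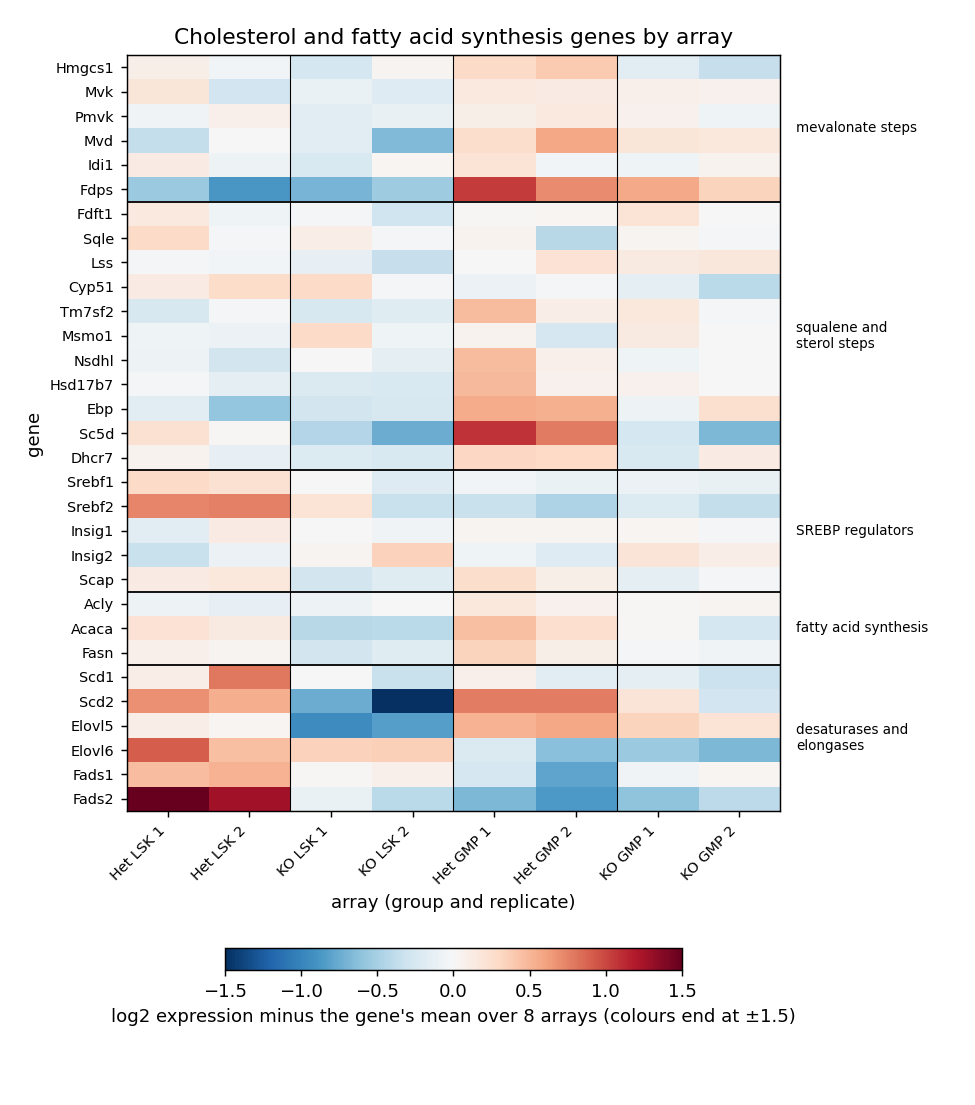
Each cell is the log2 expression of 1 of the 31 genes (vertical) on 1 of the 8 arrays (horizontal) minus that gene's mean over the 8 arrays, with genes grouped by role. Fads2 is highest in the 2 Het LSK arrays (8.49 and 7.96), Scd2 and Elovl5 are lowest in the 2 KO LSK arrays, and Fdps is higher in all 4 GMP arrays (7.64 to 8.35) than in the 4 LSK arrays (6.43 to 6.77).

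Fads2 encodes the desaturase that begins the conversion of dietary essential fatty acids to long polyunsaturated ones. Its level was 8.49 and 7.96 in Het LSK, 6.60 and 6.30 in KO LSK, 6.03 and 5.84 in Het GMP, and 6.10 and 6.31 in KO GMP. Both Het LSK arrays lay above the other 6. The difference between KO and Het was -1.77 in LSK (SE 0.19, adjusted p = 0.000593) and 0.27 in GMP (SE 0.19, adjusted p = 0.558, 95% interval -0.17 to 0.71). The effect in GMP minus that in LSK was 2.05 (SE 0.27, adjusted p = 0.00689). Below, this comparison of the effects of KO is called the test between cell types, as distinct from GMP against LSK within a genotype. Fads2 was the only member of the 31 to pass this test of the difference, which 2.29% of all rows passed (1.69% with the GMP effect above the LSK effect and 0.601% below it). Its fall in LSK passed under all 17 alternative settings, and the difference between cell types missed the threshold when all 35556 rows were tested (adjusted p = 0.0516).

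Scd2 encodes a stearoyl-CoA desaturase, which makes monounsaturated fatty acids. It stood at 8.79 and 8.65 in Het LSK and at 7.36 and 6.18 in KO LSK, and at 8.88 and 8.88 in Het GMP and 8.30 and 7.82 in KO GMP. The KO arrays lay below the Het arrays in both cell types, and the KO LSK arrays differed from each other by more than those of any other group for this gene. The fall of 1.95 in LSK (SE 0.32, adjusted p = 0.0063) missed the threshold without Het LSK replicate 1 (adjusted p = 0.0508). The KO arrays set the size: the difference was -1.36 without KO LSK replicate 2 and -2.54 without KO LSK replicate 1. In GMP it was -0.82 (SE 0.32, adjusted p = 0.228). The SE rests on the spread of all 4 groups, and for Scd2 the SD was 0.83 in KO LSK and 0.34 in KO GMP. Fitted on only the 4 GMP arrays, the same difference passed limma's test (adjusted p = 0.0344). The effect in GMP minus that in LSK was 1.13 (adjusted p = 0.327), and 1.72 without KO LSK replicate 1 (adjusted p = 0.0137). Scd1, the related desaturase gene, lay between 2.29 and 3.42 on all 8 arrays, under the array medians of 4.92 to 5.09, where a change is hard to see; it differed by -0.62 in LSK (adjusted p = 0.157, or -0.96 and 0.0342 without Het LSK replicate 1) and by -0.19 in GMP (adjusted p = 0.754).

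Elovl5 encodes an elongase of polyunsaturated fatty acids. It stood at 9.55 and 9.49 in Het LSK against 8.51 and 8.63 in KO LSK, and at 9.98 and 10.03 in Het GMP against 9.79 and 9.66 in KO GMP. It fell by 0.95 in LSK (SE 0.12, adjusted p = 0.00118), under all 17 alternative settings as well, and differed by -0.28 in GMP (adjusted p = 0.257). The effect in GMP minus that in LSK was 0.67 (SE 0.16) and missed the threshold (adjusted p = 0.0826), which it passed under 3 of 16 alternative settings. The other genes of this group, Elovl6, the elongase gene for palmitate, and Fads1, the desaturase gene that acts after Fads2, differed by -0.32 (adjusted p = 0.392) and -0.45 (adjusted p = 0.176) in LSK. Fads1 was 0.51 higher in KO GMP (adjusted p = 0.142), with KO arrays of 6.97 and 7.06 above Het arrays of 6.77 and 6.23, and passed without Het GMP replicate 1 (0.78, adjusted p = 0.0361). In all 6 desaturase and elongase genes both KO LSK arrays lay below both Het LSK arrays, a pattern that 22.7% of all rows showed. Of the 6, 3 passed, or 50%, against 7.73% of all rows.

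**Figure D2:**
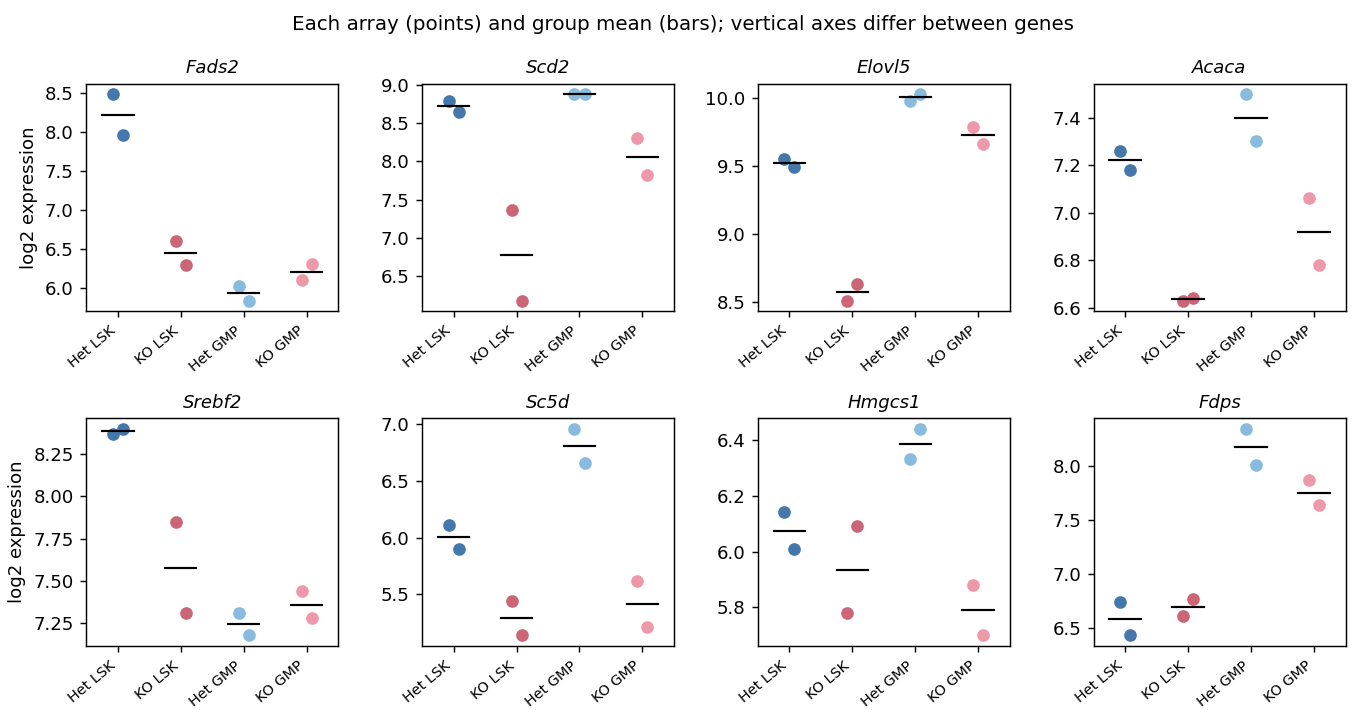
Log2 expression (vertical, with a different scale for each gene) of 8 members in the 4 groups, with 1 point for each array and a bar at the group mean. Fads2 and Srebf2 are high in Het LSK and low in the other 3 groups, while Sc5d is lower in KO than in Het in both cell types.

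Among the 3 genes that make palmitate, Acaca stood at 7.26 and 7.18 in Het LSK and at 6.63 and 6.64 in KO LSK, and fell by 0.58 (SE 0.14, adjusted p = 0.0336). In GMP it stood at 7.5 and 7.30 in Het and at 7.06 and 6.78 in KO, a difference of -0.48 (SE 0.14, adjusted p = 0.0868). The KO arrays lay below the Het arrays in each cell type. The LSK call was lost under 9 of 17 alternative settings, among them those without Het LSK replicate 1 (adjusted p = 0.16), Het LSK replicate 2 (0.115), KO LSK replicate 1 (0.0852), KO LSK replicate 2 (0.0884) or either Het GMP array (0.0521). The dimmer row of Acaca differed by -0.76 in LSK (adjusted p = 0.0146) and by -0.36 in GMP (adjusted p = 0.258). Fasn, the fatty acid synthase gene, differed by -0.29 (adjusted p = 0.246) and -0.25 (adjusted p = 0.352), and Acly, whose enzyme makes acetyl-CoA from citrate, by 0.06 (adjusted p = 0.844) and -0.09 (adjusted p = 0.786).

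Of the 5 regulator genes, Srebf2 fell in LSK. It stood at 8.37 and 8.40 in Het LSK, 7.85 and 7.31 in KO LSK, 7.31 and 7.18 in Het GMP and 7.44 and 7.28 in KO GMP. The Het LSK arrays lay above all others. The fall was 0.81 (SE 0.18, adjusted p = 0.0239), and it missed the threshold without Het LSK replicate 1 (adjusted p = 0.108), Het LSK replicate 2 (0.121) or KO LSK replicate 2 (0.0723, with a difference of -0.54). In GMP the difference was 0.12 (adjusted p = 0.814, 95% interval -0.28 to 0.52), and the effect in GMP minus that in LSK was 0.93 (SE 0.25, adjusted p = 0.113), and 1.2 without KO LSK replicate 1 (adjusted p = 0.016). Srebf1, the gene of SREBP-1, differed by -0.36 in LSK (adjusted p = 0.124) and Scap by -0.37 (adjusted p = 0.125). Insig2, a retention gene, was 0.40 higher (adjusted p = 0.157), and Insig1, itself a target of the SREBPs, differed by -0.01 in LSK and -0.03 in GMP (adjusted p = 0.98 and 0.942). No regulator gene passed limma's test in GMP (0 of 5 at an unadjusted p under 0.05).

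Of 17 measured genes of cholesterol synthesis enzymes, 1 fell in LSK (Sc5d), or 5.88% against 7.73% of all rows. In GMP 2 fell (Sc5d and Hmgcs1), or 11.8% against 6.02% of all rows, and 0 rose in either cell type. The 16 that did not pass in LSK differed by -0.23 to 0.19, and the 15 that did not pass in GMP by -0.47 to 0.19, with the lowest values in GMP those of Ebp (-0.47, adjusted p = 0.176), Fdps (-0.43, adjusted p = 0.22) and Dhcr7 (-0.36, adjusted p = 0.236). Sqle, whose squalene epoxidase is a rate-limiting enzyme of the route, differed by -0.10 in LSK (95% interval -0.5 to 0.3) and by 0.19 in GMP (-0.21 to 0.59). Among the other mevalonate genes, Mvk, Pmvk, Mvd and Idi1 differed by -0.09, -0.16, -0.23 and -0.12 in LSK and by -0.07, -0.13, -0.26 and -0.09 in GMP. Among the genes of the squalene and sterol steps, Fdft1, Lss and Cyp51 differed by -0.20, -0.21 and -0.07 in LSK and by 0.08, 0.04 and -0.21 in GMP. Tm7sf2, Nsdhl and Hsd17b7, whose enzymes trim the sterol after lanosterol, differed by -0.08, 0.11 and -0.13 in LSK and by -0.22, -0.30 and -0.24 in GMP. None of these 10 genes passed in either cell type (adjusted p from 0.395 to 0.928).

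Over all 31 members in GMP, 2 fell and 0 rose, or 6.45%, near the 6.02% of all tested rows that passed (3.45% as higher and 2.57% as lower). Among rows at or above log2 5 in at least 2 arrays, 3 of 30 members fell, and 1614 of 11695 rows passed. The median difference in GMP was -0.19 over the members and -0.02 over all rows, and the members' median was -0.07 without Het GMP replicate 1 and -0.12 without KO GMP replicate 2. Both KO GMP arrays lay below both Het GMP arrays in 17 members (27.9% of all rows) and above in 3 (23.4%).

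Sc5d, whose enzyme introduces the last ring double bond before Dhcr7 acts, was the only member called in both cell types. It stood at 6.11 and 5.90 in Het LSK against 5.44 and 5.14 in KO LSK, and at 6.96 and 6.66 in Het GMP against 5.62 and 5.21 in KO GMP. The KO arrays lay below the Het arrays in each cell type. It fell by 1.40, or 2.63-fold, in GMP (SE 0.18, adjusted p = 0.00202), under all 17 alternative settings as well. In LSK it fell by 0.72 (SE 0.18, adjusted p = 0.0471), and this call was lost under 9 of 17 settings, with adjusted p = 0.223 without Het LSK replicate 1, 0.11 without Het LSK replicate 2, 0.174 without KO LSK replicate 2, 0.0655 without either Het GMP array and 0.0637 after array medians were subtracted. The effect in GMP minus that in LSK was -0.68 (SE 0.26, adjusted p = 0.287). Hmgcs1, whose enzyme makes HMG-CoA for the mevalonate route, stood at 6.33 and 6.44 in Het GMP against 5.88 and 5.70 in KO GMP and at 6.14 and 6.01 in Het LSK against 5.78 and 6.09 in KO LSK. The groups were separate in GMP and overlapped in LSK. It fell by 0.59, or 1.51-fold, in GMP (SE 0.14, adjusted p = 0.0473), and this call was lost under 10 of 17 settings, among them those without Het GMP replicate 1 (0.163), Het GMP replicate 2 (0.239), KO GMP replicate 1 (0.108), KO GMP replicate 2 (0.28) or either Het LSK array (0.0695).

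**Figure D3:**
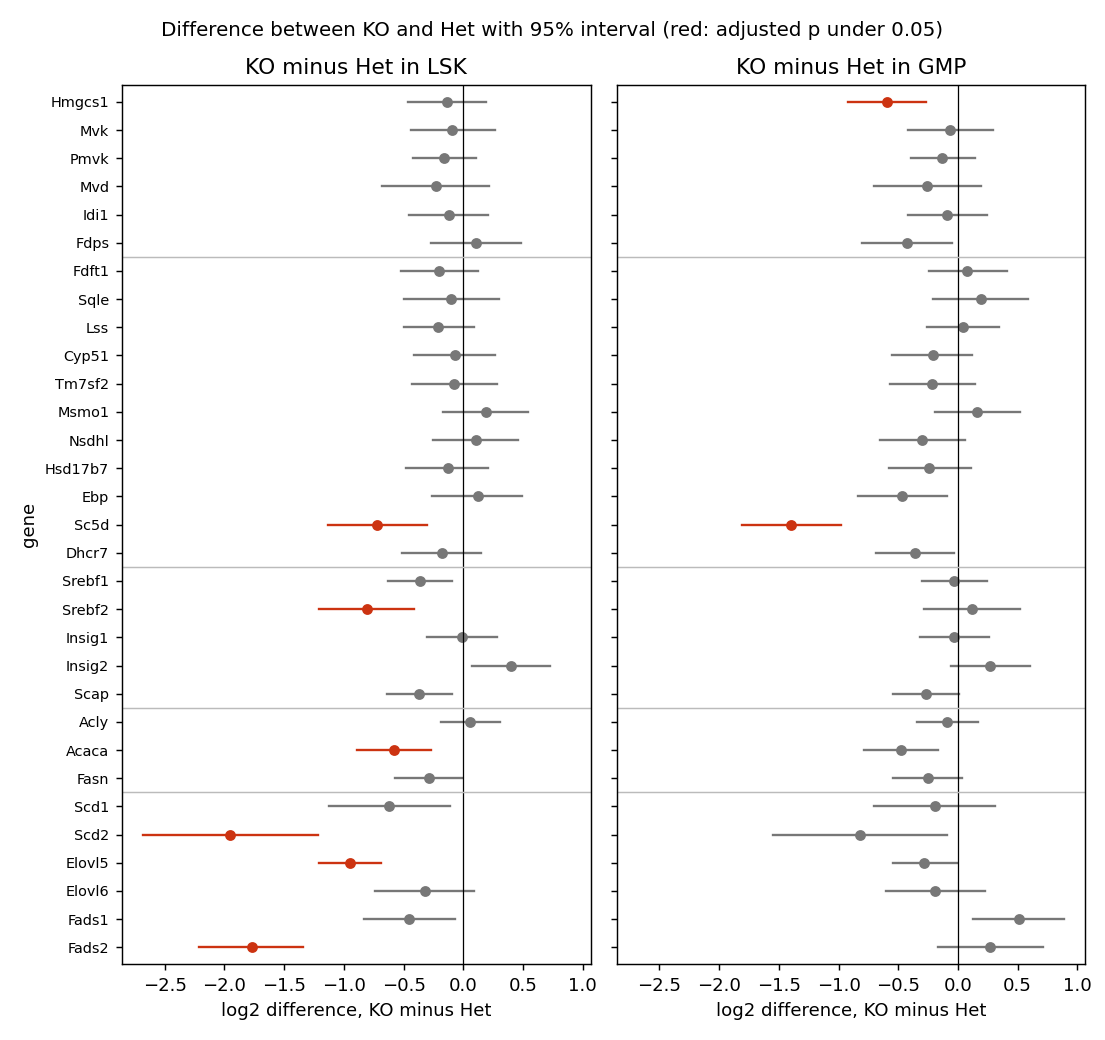
Log2 difference between KO and Het (horizontal) for each of the 31 genes (vertical, grouped by role) in LSK (left) and GMP (right), with limma's 95% interval; red marks an adjusted p under 0.05. The largest falls in LSK are those of Scd2 (-1.95) and Fads2 (-1.77), and the largest in GMP is that of Sc5d (-1.40).

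Across both cell types, 19 of the 31 members had a lower mean in KO than in Het in LSK and in GMP, 2 had a higher mean in both (Msmo1 and Insig2), and 7 passed in at least 1 of the cell types. The same shares over all rows were not counted. Arrays of the 2 cell types may come from the same mice, so their signs may not be independent. Genes of other blood lineages changed in the same arrays, and their counts stand beside the 7.73% of all tested rows that passed in LSK (3.02% higher and 4.71% lower). In GMP 6.02% of all tested rows passed (3.45% higher and 2.57% lower). Of 7 measured lymphoid marker genes, 6 fell in KO LSK, and 1 was higher and 1 lower in KO GMP. The sum of the log2 values of the 7 genes was 51.3 to 53.7 in Het LSK and 30.5 to 34.4 in KO LSK. In GMP it was 32.3 to 33 in Het and 33.3 to 33.6 in KO. Among 8 genes of megakaryocytes and platelets, 4 were higher and 1 lower in KO LSK and 7 were higher in KO GMP, with sums of 47.8 to 48.3 and 60.7 to 62.2 in Het and KO LSK and of 39.9 to 42 and 64.8 to 67.1 in Het and KO GMP. Among 8 genes of monocytes, macrophages and dendritic cells, KO cells had 4 lower and 1 higher in LSK and 6 lower and 1 higher in GMP (sums of 49.9 to 50.9 against 39.6 to 40.9, and of 53.9 to 56 against 39.7 to 44.1). Among 7 genes of mast cells, basophils and eosinophils, KO cells had 2 higher and 1 lower in LSK, with Cpa3 3.92 higher, and 1 higher and 3 lower in GMP (sums of 32.8 to 36.7 against 37.9 to 39.1, and of 50 against 44.4 to 47.1). Among 6 erythroid genes, KO cells had 1 higher and 1 lower in LSK and 2 higher in GMP (sums of 33 to 33.1 against 32 to 32.4, and of 31.7 to 32.3 against 34.5 to 35.5). Of 13 proliferation genes, 0 passed limma's test in either cell type (0 also at an unadjusted p under 0.05), with sums of 110 to 112.7 in Het LSK, 102.5 to 113.2 in KO LSK, 115.5 to 116.3 in Het GMP and 111.5 to 115.1 in KO GMP. Of 11 immediate early and heat shock genes, which can respond to cell handling, 1 rose in KO LSK (Btg2) and 6 rose in KO GMP, with sums of 90.6 to 91.3 in Het LSK, 93.6 to 97.8 in KO LSK, 81.8 to 82.2 in Het GMP and 91.6 to 92.4 in KO GMP. The part of these genes in the falls of Fads2, Scd2, Elovl5, Acaca, Srebf2, Sc5d and Hmgcs1 was not tested. In sorted populations, fewer cells of a type and less RNA per cell cannot be told apart.

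Promoter sequence was compared because both the SREBPs and the Runx factors, which need Cbfb, act at DNA motifs. RefSeq promoter windows (GRCm38.p6, 250 bases before to 50 after an annotated start) were at hand for 25 of the 31 members, 33 windows in all, and not for Scd1, Scd2, Fads1, Fdps, Fdft1 and Sqle. On either strand, the sterol regulatory element type motif TCACNCCAC was found in 1 of the 33 windows, against 1.24% of all 32851 windows. A form that is 1 base shorter, TCACNCCA, was added after the windows were seen; it overlaps the longer form and was found in 3 (Hmgcs1, Srebf2 and Msmo1), against 4.36%. The NF-Y type motif CCAAT was in 22 of the 33 windows, or 66.7%, against 37.4%. The Runx type motif TGTGGT was in 4 (Lss, Acly, Acaca and Elovl5), or 12.1%, against 16.8%. These matches are descriptions of letters in a window and show no binding.

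The 250 bases before the start are given for 5 of the 7 members that fell in KO, with matches to these motifs, on either strand, in capitals. Of the others, Scd2 had no window. That of Acaca (chr11:84195188-84195437, plus strand) is not printed and holds a Runx type match 83 bases before the start. Hmgcs1 (chr13:119690101-119690350, plus strand) holds the sterol type motif TCACNCCAC, 137 bases before the start. Srebf2 (chr15:82147019-82147268, plus strand) holds only the shorter form TCACNCCA, 162 bases before the start. Elovl5 (chr9:77917115-77917364, plus strand) holds a Runx type match 154 bases before the start on the opposite strand. Sc5d (chr9:42264301-42264550, minus strand) holds 1 CCAAT match, 24 bases before the start, and Fads2 (chr19:10101504-10101753, minus strand) holds no match to any of the motifs searched.
Hmgcs1: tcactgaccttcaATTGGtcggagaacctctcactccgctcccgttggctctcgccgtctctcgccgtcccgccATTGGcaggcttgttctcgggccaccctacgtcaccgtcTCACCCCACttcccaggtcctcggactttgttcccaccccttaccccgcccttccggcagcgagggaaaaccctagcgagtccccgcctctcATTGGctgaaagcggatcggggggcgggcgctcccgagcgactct
Srebf2: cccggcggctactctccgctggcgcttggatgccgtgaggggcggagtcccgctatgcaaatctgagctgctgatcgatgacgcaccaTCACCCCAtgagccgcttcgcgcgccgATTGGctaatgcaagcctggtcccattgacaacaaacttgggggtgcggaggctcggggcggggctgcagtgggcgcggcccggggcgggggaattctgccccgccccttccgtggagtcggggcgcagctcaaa
Elovl5: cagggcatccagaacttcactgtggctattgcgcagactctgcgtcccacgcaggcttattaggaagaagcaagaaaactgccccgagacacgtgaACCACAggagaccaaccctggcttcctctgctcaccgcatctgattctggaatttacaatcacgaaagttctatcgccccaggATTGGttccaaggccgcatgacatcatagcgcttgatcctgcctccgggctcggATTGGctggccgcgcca
Sc5d: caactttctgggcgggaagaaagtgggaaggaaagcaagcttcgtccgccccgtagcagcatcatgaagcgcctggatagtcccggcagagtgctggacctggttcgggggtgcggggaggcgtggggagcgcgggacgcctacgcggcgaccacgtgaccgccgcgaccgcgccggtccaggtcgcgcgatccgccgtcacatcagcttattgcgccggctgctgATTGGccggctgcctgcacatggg
Fads2: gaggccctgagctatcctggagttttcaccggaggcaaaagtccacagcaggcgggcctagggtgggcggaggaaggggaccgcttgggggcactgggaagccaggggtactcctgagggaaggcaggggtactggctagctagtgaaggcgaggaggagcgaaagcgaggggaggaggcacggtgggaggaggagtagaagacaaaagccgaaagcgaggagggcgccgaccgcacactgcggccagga

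Position on the chromosome was also compared, with gene order taken from RefSeq and neighbours looked up after the members' values were seen. Sc5d lies on chromosome 9 next to Sorl1, a sorting receptor gene that is no member. Sorl1 fell in the same comparisons as Sc5d, by 3.37 in GMP (SE 0.16, adjusted p = 2.08e-05) and by 1.60 in LSK (SE 0.16, adjusted p = 0.000391). The gene on the other side, Tecta, differed by -0.08 and 0.09, with group means of 3.5 or less, under the array medians, where a change is hard to see. Fads2 lies on chromosome 19 between Fads3 and Fads1. Fads3 stood at 5.38 in Het LSK and 4.77 in KO LSK (-0.62, SE 0.19, adjusted p = 0.0992), and differed by 0.08 in GMP (adjusted p = 0.899). The neighbours of Scd2, Scd3 and Scd4, had group means of 3.52 or less, under the array medians. Nim1k, next to Hmgcs1, fell by 0.73 in LSK (adjusted p = 0.0345), where Hmgcs1 did not pass, and differed by 0.05 in GMP (adjusted p = 0.93), where Hmgcs1 fell. Its group means were 4.46 or less, under the array medians as well. The other measured neighbours did not pass: Ccl28 beside Hmgcs1 differed by 0.25 in LSK and -0.01 in GMP, Ccdc134 beside Srebf2 by -0.36 and -0.41, Gclc beside Elovl5 by -0.24 and -0.18, and Tada2a and Gm11437 beside Acaca by -0.02 and 0.19 in LSK and by -0.02 and 0.08 in GMP. Of these, Ccl28 and Gm11437 had group means of 3.17 or less, under the array medians.

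Other genes of lipid handling were taken from 4 lists. Of 11 measured genes of sterol uptake, storage and efflux, 0 rose and 2 fell in LSK, or 18.2% against 7.73% of all rows: the cholesterol exporter gene Abca1 fell by 1.19 (SE 0.26, adjusted p = 0.0271) and Npc1, which moves cholesterol out of lysosomes, fell by 0.71 (SE 0.17, adjusted p = 0.0336). In GMP 1 rose and 1 fell, or 18.2% against 6.02%: Stard4, a sterol carrier gene, rose by 0.67 (SE 0.13, adjusted p = 0.0164) and Npc2, the lysosomal partner of Npc1, fell by 0.67 (SE 0.14, adjusted p = 0.0207). For Abca1 the fall did not pass without Het LSK replicate 1 (0.055), Het LSK replicate 2 (0.174), KO LSK replicate 2 (0.0593, with a difference of -0.73) or either Het GMP array (0.0525). The Npc1 call was lost without any single array but KO LSK replicate 1, with adjusted p from 0.0559 to 0.154, and its difference was -0.45 without KO LSK replicate 2. The Stard4 and Npc2 calls were lost without Het GMP replicate 1 (0.109 and 0.155), Het GMP replicate 2 (0.104 and 0.0943) or KO GMP replicate 2 (0.0925 and 0.17), and that of Stard4 also without KO GMP replicate 1 (0.114).

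For fatty acid supply and use, 22 genes were measured, of which KO cells had 1 higher and 3 lower in LSK (18.2%, against 7.73% of all rows) and 1 higher and 1 lower in GMP (9.09%, against 6.02%). Elovl7, an elongase gene that is no member, went the other way from Elovl5: it stood at 5.44 and 5.70 in Het LSK and at 6.94 and 7.02 in KO LSK, a rise of 1.41 (SE 0.18, adjusted p = 0.00169) that passed under all 17 alternative settings. In GMP it stood at 5.72 and 5.16 in Het and at 6.44 and 6.52 in KO, a rise of 1.04 (SE 0.18, adjusted p = 0.0107) that did not pass without Het GMP replicate 2 (0.0603), KO GMP replicate 1 (0.0543) or KO GMP replicate 2 (0.0852). Fabp5, a fatty acid carrier gene, fell by 1.66 in GMP (SE 0.17, adjusted p = 0.00056), from 8.45 and 8.31 to 6.74 and 6.70. In LSK it fell by 0.90 (SE 0.17, adjusted p = 0.0128), which did not pass without Het LSK replicate 1 (0.0837) or KO LSK replicate 1 (0.0577). The fatty acid receptor gene Cd36, at 3.51 or less on all 8 arrays, fell by 0.82 in LSK (adjusted p = 0.0279), and Acss2, named after its values were seen, whose enzyme makes acetyl-CoA from acetate, fell by 0.61 (adjusted p = 0.0374). For Cd36 it did not pass without Het LSK replicate 2 (adjusted p = 0.171), KO LSK replicate 2 (0.115) or either Het GMP array (0.0535). The Acss2 call was lost without any single array but KO LSK replicate 1, with adjusted p from 0.0598 to 0.186. Of 10 isoprenoid genes and 5 genes of SREBP processing, 0 passed limma's test in LSK or GMP (1 isoprenoid gene in each at an unadjusted p under 0.05, and 0 of SREBP processing), with Fntb the largest difference (-0.45 in GMP, adjusted p = 0.197, and -0.32 in LSK, adjusted p = 0.332). In the SREBP processing list it was Fbxw7, a ubiquitin ligase gene (0.30 in LSK, adjusted p = 0.315, and 0.27 in GMP, adjusted p = 0.413).

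The comparison of GMP with LSK asked how the same genes differ between the populations in each genotype. It shares its arrays with the comparisons of genotype above, so its values restate some of theirs from the other side. In Het, 3 of 17 cholesterol enzyme genes were higher in GMP and 0 were lower, or 17.6%, near the 17.5% of all rows that passed in either direction. Of the 6 desaturase and elongase genes, 1 was higher and 3 were lower, or 66.7%, and Srebf2 was lower. Of the 31 members, 4 were higher in Het GMP than in Het LSK and 4 were lower, 25.8% in all, where 17.5% of all rows passed (7.9% higher and 9.6% lower). In KO, 2 were higher and 1 was lower, or 9.68%, where 6.05% of all rows passed (3.66% and 2.39%). The 3 that passed in KO also passed in Het. Among rows at or above log2 5 in at least 2 arrays, the members' share was not above that of all such rows in either genotype. Of 30 members there, 5 were higher and 5 lower in Het, where 4143 of 11695 rows passed. In KO, 3 were higher and 1 was lower, where 1687 of 11695 rows passed. Both GMP arrays lay above both LSK arrays in 16 members in Het (29.7% of all rows) and 15 in KO (21.5%), and below in 7 in Het (28.2%) and 2 in KO (26%).

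Fdps, whose enzyme makes farnesyl diphosphate, was 3.03-fold higher in Het GMP than in Het LSK and 2.09-fold higher in KO GMP than in KO LSK. Its level was 6.74 and 6.43 in Het LSK, 6.61 and 6.77 in KO LSK, 8.35 and 8.01 in Het GMP and 7.87 and 7.64 in KO GMP, so that all GMP arrays lay above all LSK arrays. The differences were 1.60 (SE 0.17, adjusted p = 0.000244) and 1.06 (SE 0.17, adjusted p = 0.00648), and the KO value was lost without KO GMP replicate 1 (adjusted p = 0.061). The other enzyme genes of the route that passed in Het were Ebp, the sterol isomerase gene, at 6.61 and 6.18 in LSK and 7.32 and 7.30 in GMP (0.92, SE 0.17, adjusted p = 0.00517), and Sc5d (0.80, SE 0.18, adjusted p = 0.0153, lost without Het LSK replicate 2, 0.11, or Het GMP replicate 1, 0.125). In KO, Ebp stood at 6.49 and 6.53 in LSK and 6.69 and 7.00 in GMP, and differed by 0.33 (adjusted p = 0.324). Sc5d differed by 0.12 in KO (adjusted p = 0.782). The tests of the difference between the genotypes did not pass for Fdps, Ebp or Sc5d (adjusted p = 0.378, 0.328 and 0.287).

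Fads2 was 4.90-fold lower in Het GMP than in Het LSK (-2.29, SE 0.19, adjusted p = 7.82e-05) and differed by -0.25 in KO (SE 0.19, adjusted p = 0.547). Srebf2 differed by -1.14 in Het (SE 0.18, adjusted p = 0.0021) and by -0.22 in KO (adjusted p = 0.565), and Fads1 by -1.02 in Het (SE 0.17, adjusted p = 0.00321) and by -0.06 in KO (adjusted p = 0.897). For these 2 genes the difference between genotypes missed the threshold (adjusted p = 0.113 and 0.0898); that of Fads1 passed without Het GMP replicate 1 (1.23, adjusted p = 0.0364). Elovl6 was lower in GMP in both genotypes: it stood at 8.28 and 7.82 in Het LSK against 7.15 and 6.75 in Het GMP, and at 7.72 and 7.73 in KO LSK against 6.82 and 6.70 in KO GMP. All LSK arrays lay above all GMP arrays. The differences were -1.10 (SE 0.18, adjusted p = 0.00326) and -0.96 (SE 0.18, adjusted p = 0.0164), and the KO value was lost without KO LSK replicate 1 (adjusted p = 0.0537), KO GMP replicate 1 (0.072) or KO GMP replicate 2 (0.113). Elovl5 was higher in GMP in both, by 0.48 in Het (SE 0.12, adjusted p = 0.0197, lost without any 1 of the 4 Het arrays, with adjusted p from 0.0629 to 0.109, and 0.25 with adjusted p = 0.19 after quantile normalization) and by 1.16 in KO (SE 0.12, adjusted p = 0.000571). Scd2 was 1.29 higher in KO GMP than in KO LSK but did not pass (adjusted p = 0.0519); it passed under 7 of 17 alternative settings, and the value was 1.88 without KO LSK replicate 1 (adjusted p = 0.00167) and 0.70 without KO LSK replicate 2.

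**Figure D4:**
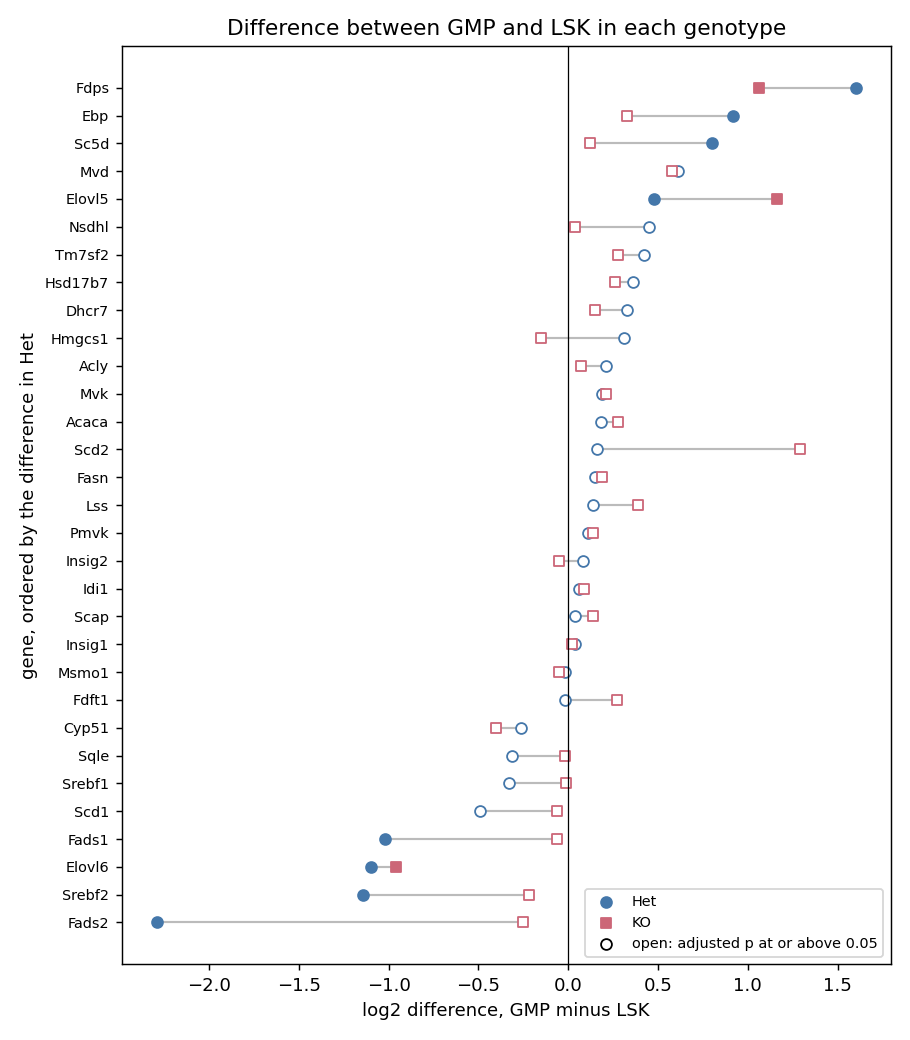
Log2 difference between GMP and LSK (horizontal) for each of the 31 genes (vertical, ordered by the value in Het) in Het (blue circles) and KO (red squares), with filled symbols where the adjusted p was under 0.05. Fads2, Srebf2 and Fads1 lie far below 0 in Het (-2.29, -1.14 and -1.02) and near 0 in KO (-0.25, -0.22 and -0.06), while Fdps and Elovl6 lie on the same side in both.

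The counts in Het depend on how the arrays are scaled. Subtracting each array's median raises every difference between GMP and LSK in Het by 0.16. With it, 9 members were higher and 4 lower, the added ones being Mvd, Tm7sf2, Nsdhl, Hsd17b7 and Dhcr7, and 67.1% of all called rows were higher in GMP in place of 45.1%. The same step raises every difference between KO and Het in LSK by 0.09, after which 4 members fell (Sc5d and Acaca no longer passed) and 52.4% of called rows were higher in place of 39%. In the test between cell types it lowers differences by 0.14, and 58.4% of called rows were higher in place of 73.7%.

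Among the other lipid genes, 3 of 11 in the sterol uptake, storage and efflux list were higher in Het GMP than in Het LSK and 5 were lower, led by the lipoprotein receptor gene Vldlr, which stood at 7.29 in LSK and 4 in GMP (-3.29, SE 0.33, adjusted p = 0.000196) and, in KO, at 6.32 and 4.65 (-1.67, adjusted p = 0.0192, lost without KO LSK replicate 1, 0.0871, or KO GMP replicate 2, 0.134). Abca1 and Abcg1, both sterol exporter genes, differed by -1.57 and -1.54 (adjusted p = 0.00351 and 0.00137), and Scarb1, the receptor gene for high-density lipoprotein, was 0.81 higher (adjusted p = 0.00153), and 0.68 higher in KO (adjusted p = 0.0103). In this list 72.7% of the measured genes passed in Het and 18.2% in KO, where 17.5% and 6.05% of all rows passed. Of the 22 fatty acid supply and use genes, 3 were higher and 3 lower in Het GMP, or 27.3% against 17.5% of all rows. In KO GMP 2 were higher and 0 lower, or 9.09% against 6.05%. Dgat2, whose enzyme makes triglyceride, stood at 4.32 in LSK and 6.69 in GMP in Het (2.37, SE 0.13, adjusted p = 1.09e-05), and at 4.60 and 7.08 in KO (2.48, SE 0.13, adjusted p = 1.47e-05). Mlx, a transcription factor gene, was 1.25 higher in Het (adjusted p = 0.000266) and 1.00 higher in KO (adjusted p = 0.00265), and Lpin1, a phosphatidate phosphatase gene, differed by -1.27 in Het (adjusted p = 0.00198). Of 10 isoprenoid genes, 1 was higher in Het and in KO (Dhdds, a dolichol synthesis gene, by 0.75 and 0.85, adjusted p = 0.0025 and 0.00367), or 10% in each genotype against 17.5% and 6.05% of all rows.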

How the data were processed

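Per the submitters' processing notes, the authors made the deposited log2 expression values with RMA, a method of background correction, quantile normalization and probe summary. Not given in the sources used here were its software, version and genome build. RMA gives no detection call, understates changes of dim genes and cannot show a shift of all transcripts. The table held 35556 rows; the platform annotation gave 1 symbol to 21789, several to 1621 and none to 12146, and the last 2 kinds entered only the alternative that tests all rows.

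Differences were tested on these values with limma 3.58.1 (R 4.3.3): 1 mean per group over all 8 arrays (4 residual and 4.83 prior degrees of freedom), two-sided, with Benjamini-Hochberg adjustment over the 21789 rows in each of 5 contrasts. The script was checked on simulated data. The number of arrays limits the precision. Every array value is given for members called between KO and Het or in the test between cell types. For GMP against LSK within a genotype, array values are given for up to 3 called members each way. From other lists up to 3 called genes per comparison were named, besides Acss2, not all with array values. The members and lists were chosen with earlier results of these data known. Alternatives changed scaling, rows tested, a filter on dim rows (log2 5 in 2 arrays), arrays fitted, the variance prior, the replicate block, the row of a gene and each array in turn. Motifs were searched as exact letters on both strands.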

Additional observations from a re-analysis of the deposited data

Results flagged for a closer look

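The effect of KO against Het on Fads2 differed between the cell types by limma's test of that difference: it was 2.05 higher in GMP than in LSK on the log2 scale (SE 0.27, adjusted p = 0.00689), with both KO arrays below both Het arrays in LSK and above them in GMP. It passed in 15 of the 16 alternative settings that can give it, with values from 1.78 to 2.31. In the fit as reported, no other member and no gene of the 4 other lipid lists passed this test (0 genes). Among the 31 members 8 had an unadjusted p under 0.05, Fads2 included. Genes of the marker lists passed it too. With the GMP effect above the LSK effect these were 3 of 6 LSK markers, 5 of 7 lymphoid genes and 5 of 8 megakaryocyte and platelet genes. Of 7 genes of mast cells, basophils and eosinophils, 4 passed with the GMP effect below. Under at least 1 alternative setting the members Elovl5, Srebf2, Scd2 and Fads1 and the list genes Vldlr, Abca1, Abcg1, Npc1 and Acss2 passed it. Groups of 2 arrays are too small for a test of single outlying arrays.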

How the results depend on the processing

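In 17 alternative settings, none of the 2599 member values reversed with a call on either side; 48 calls were lost and 35 gained, and 105 values under the threshold changed sign. Fads2 and Elovl5 in LSK, Sc5d in GMP, Fdps, Ebp, Srebf2, Elovl6, Fads1 and Fads2 between GMP and LSK in Het, and Elovl5 between them in KO passed in all 17. With all 35556 rows tested, 3 members fell in LSK, 1 fell in GMP, 0 passed the test between cell types and 0 were lower in GMP in KO, and 784 rows passed in GMP in place of 1312, 182 in place of 499 between cell types and 756 in place of 1318 between GMP and LSK in KO. With only the 4 arrays compared, 3 members fell in LSK (Fads2, Scd2 and Elovl5), 1071 rows passed there in place of 1684, and 691 passed between GMP and LSK in KO; this fit has fewer arrays. After array medians were subtracted, 9 members were higher in GMP in Het. Quantile normalization left 1 member lower in KO GMP (Sc5d) and gave 2 with a difference between cell types, as did the filter on dim rows and the intensity trend, which both also gave 2 (Fads2 and Elovl5 in each).

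Leaving out each array in turn gave 994 to 1614 rows in LSK (3 to 6 members lower, 0 higher), 634 to 1586 in GMP (1 to 3 lower, 0 to 1 higher), 223 to 705 between cell types (1 to 3 members, all higher), 2078 to 4486 between GMP and LSK in Het (2 to 5 higher, 4 to 5 lower) and 579 to 1539 in KO (1 to 3 higher, 0 to 1 lower). The cause of these changes was not tested.

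The replicate numbers are not known to pair arrays. Deviations of same-numbered arrays from their group means correlated at -0.143 to 0.179 between groups. With the replicate block 1 member fell in GMP (Sc5d; Hmgcs1 had adjusted p = 0.072), and 1570, 1224, 480, 3602 and 1216 rows passed in the 5 contrasts. A block within genotype, chosen after these correlations were seen, kept 6 members lower in LSK and 2 lower in GMP (Sc5d and Scd2, adjusted p = 0.04, with Hmgcs1 at 0.0777). Vldlr, higher on replicate 1 than on replicate 2 in each of the 4 groups, passed with the replicate block in LSK (-0.97, adjusted p = 0.00513), in GMP (0.65, 0.0408) and between cell types (1.62, 0.00876), and within genotype as well (0.00741, 0.0449 and 0.0111). Within genotype, Abcg1 (0.00959), Acss2 (0.0416) and Abca1 (0.049) also passed between cell types.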
